A study of Mus musculus with 27 samples.

Results

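Across 9 diets, 10 genes of the endoplasmic reticulum (ER) stress response were followed in mouse liver: Hspa5, Hsp90b1, Pdia4, Pdia6, Dnajb9, Sdf2l1, Creld2, Xbp1, Ddit3 and Atf4. They were taken by name from the 18194 gene symbols in the annotation of the Affymetrix mouse array, and 21 probe sets list 1 of them alone. Livers came from 27 male C57BL/6 mice, labelled 10 weeks old, that ate their diet for 3 weeks, with n = 3 mice and 1 array per mouse on each diet. Mice on diet restriction received lab chow at 75% of the ad libitum intake, so that lab chow and the AIN-93 purified control diet are both set beside them. The other diets were a high-fructose diet (60% fructose), a high-fat diet, an atherogenic diet with cholesterol and cholic acid, a Western diet (42% of calories from fat, rich in saturated fat and sucrose), a diet deficient in essential fatty acids (EFA-deficient) and a low n-3 diet with 7% sunflower oil. The low n-3 arrays carry that name only in their description, and their title and diet tag name a DHA supplement instead. No mouse carried a genetic change, and nothing in the labels names a drug or another stressor given to any group.

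Proteins bound for secretion fold in the ER, and the liver, which makes most plasma proteins, holds abundant folding machinery. When unfolded proteins build up, the sensors IRE1 (Ern1), PERK (Eif2ak3) and ATF6 start the unfolded protein response. IRE1 splices the Xbp1 transcript into a form that encodes an active transcription factor, ATF6 is cleaved and moves to the nucleus, and PERK slows translation while favouring that of Atf4. XBP1 and ATF6 raise chaperone transcripts, and ATF4 raises genes of amino acid supply and, with further stress, Ddit3, which encodes the factor CHOP. The arrays measured transcript abundance only, not splicing or protein.

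Many ER chaperone genes are known to carry an ER stress response element, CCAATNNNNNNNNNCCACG, close to their start. The 5 matches in the genes followed here are shown because they are what the promoters of some of these chaperones share outside the expression data. Each sequence is 59 bases of the gene's own strand, from RefSeq (GRCm38.p6), upstream of the annotated transcript start, with the outer parts of the element in capitals.
Hspa5: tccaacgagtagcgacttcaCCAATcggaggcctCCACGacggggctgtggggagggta
Pdia6: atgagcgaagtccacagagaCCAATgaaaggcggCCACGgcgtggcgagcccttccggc
Creld2: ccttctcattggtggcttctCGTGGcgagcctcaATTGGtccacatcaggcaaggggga
Hsp90b1, farther from the start: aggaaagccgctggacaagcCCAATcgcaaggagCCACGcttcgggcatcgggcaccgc
Hsp90b1, nearer to the start: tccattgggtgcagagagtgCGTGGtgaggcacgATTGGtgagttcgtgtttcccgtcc
They lie at chr2:34772005-34772063 (plus strand), chr12:17266471-17266529 (plus strand), chr15:88819500-88819558 (plus strand), chr10:86705618-86705676 (minus strand) and chr10:86705513-86705571 (minus strand). The elements begin 65, 98, 126, 212 and 107 bases before the start, counted from their end farther from it. Those of Creld2 and the nearer one of Hsp90b1 are on the opposite strand and read as CGTGG and ATTGG.

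The element was searched on both strands in the 300 bases (250 before and 50 after the start) of 32851 promoters of 27025 genes, and 39 promoters (0.119%) held it. Of the 10 genes, 4 held it (Hspa5, Hsp90b1, Pdia6 and Creld2). The short parts alone were common: CCAAT stood in 37.4% of all promoters and in 9 of the 10 genes, and CCACG in 32.8% of promoters and in 8 genes. The core of the cyclic AMP response element, TGACGT, stood in 7.51% of promoters and in Hspa5 alone among the 10. The core of the composite C/EBP-ATF element, TGATGNAA, stood in 3.97% of promoters and in none of the 10. These matches describe letters in these windows, and binding was not measured.

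Values are log2 intensities. The detection level is log2(100), or 6.64, probe sets with a mean above it on at least 1 diet were kept, and kept probe sets of the same gene were averaged. Of the 21 probe sets, 16 were kept, which left 9 of the 10 genes to test among 6478 in all. The medians of kept probe sets lay between 8.22 and 8.38 on the 27 arrays. All 8 hepatocyte markers exceeded the detection level on every diet, while none of the 6 pancreatic acinar markers and none of the 5 T and NK cell markers did so on any diet. A change is called when limma's adjusted p is under 0.05, with Benjamini-Hochberg adjustment over all genes and 8 diets together. Differences are the named diet minus its reference on the log2 scale, with the percent of the reference and its 95% confidence interval. In whole liver, fewer cells of a type and less RNA per cell cannot be told apart.

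Under diet restriction 4 of the 9 genes tested fell against the AIN-93 purified control and 4 of 9 against lab chow, and none of the 9 rose in either comparison. Hspa5, Creld2 and Xbp1 fell against both references, Atf4 only passed the test against control, and Sdf2l1 only against chow. The background was high: 16.0% of all genes tested fell under diet restriction against control and 17.6% against chow. The 9 genes had a median difference of -0.58 against control, where all genes had -0.03, and of -0.47 against chow, where all genes had 0.01. Both comparisons share the restricted mice, so they are not separate evidence.

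**Figure D1:**
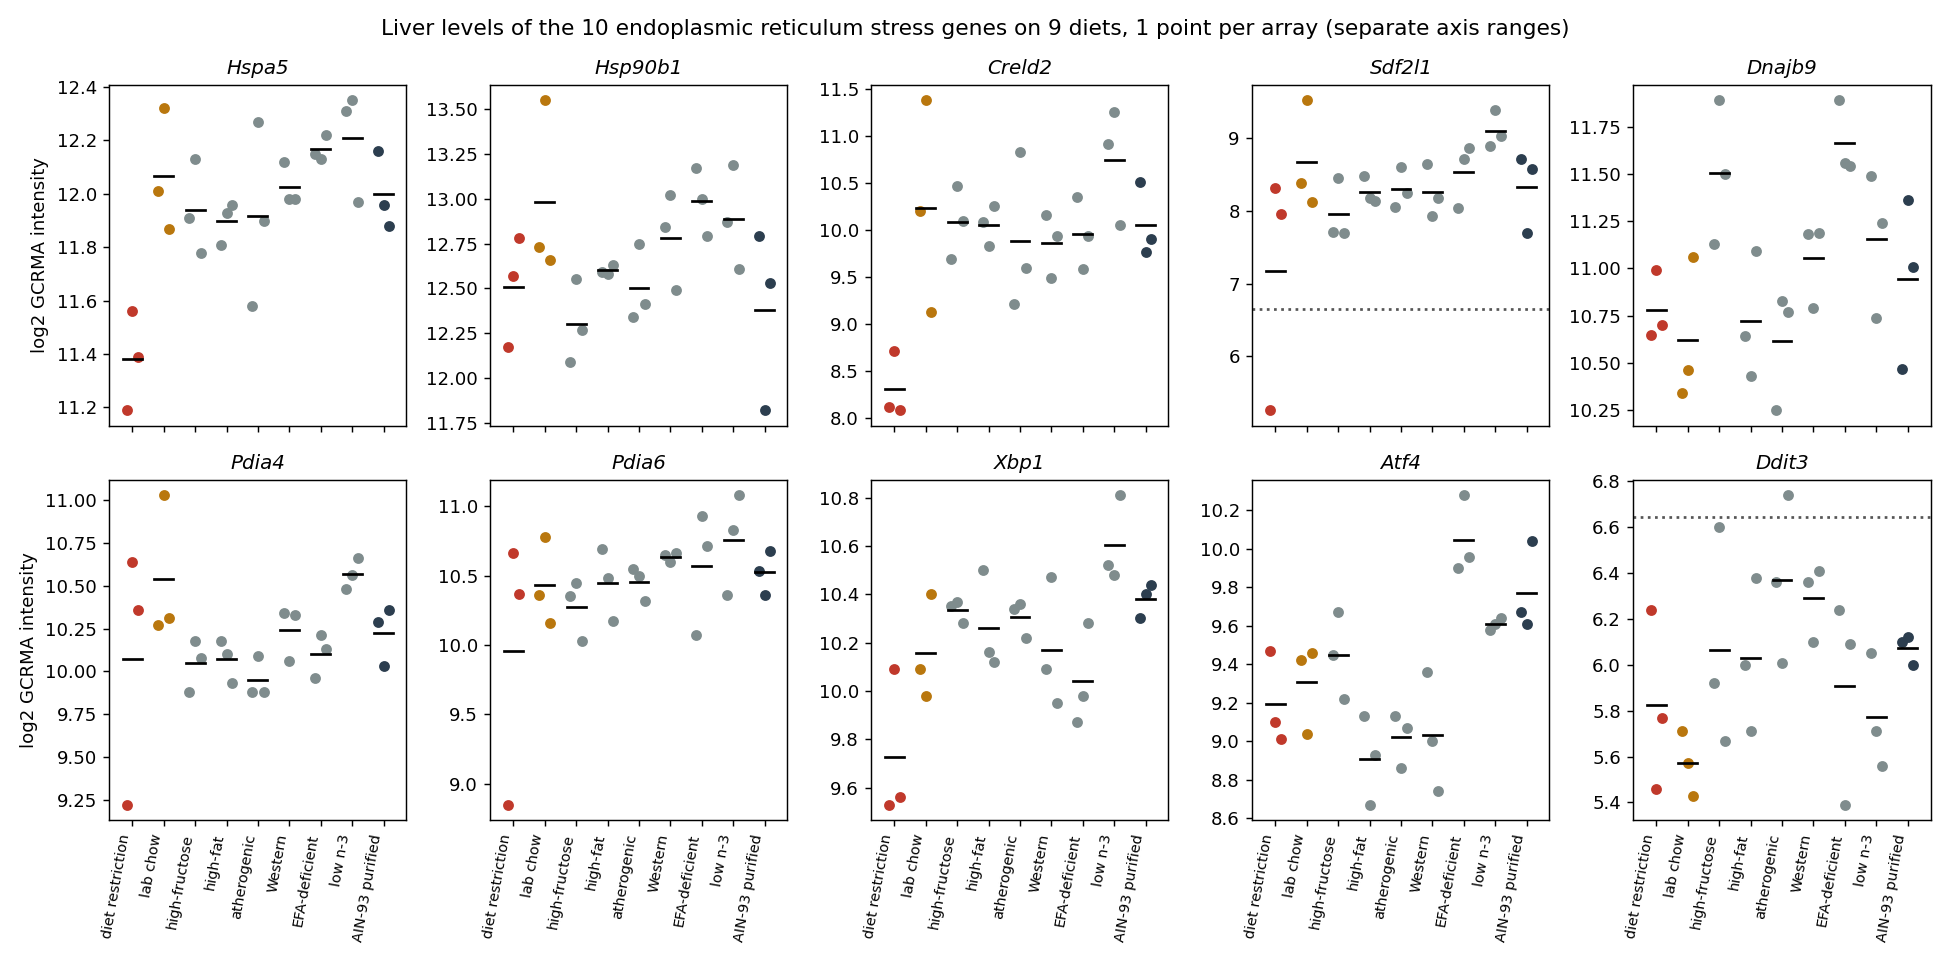
Log2 intensity (vertical axes, each with its own range) of the 10 genes on 9 diets (horizontal axes), with a point for each array, a bar for the mean of 3, and a dotted line at the detection level of 6.64 where it falls in range. The 3 restricted mice lie below every other array for Hspa5 and Creld2, and Atf4 is low on the high-fat, atherogenic and Western diets.

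Hspa5 encodes BiP (GRP78), the main Hsp70 chaperone of the ER, which also holds the stress sensors inactive. Its log2 intensity was 11.19, 11.56 and 11.39 in the 3 restricted mice, against 12.01, 12.32 and 11.87 on lab chow and 12.16, 11.96 and 11.88 on the control diet. All 3 restricted values lay below those of all other arrays, although the lowest atherogenic array, at 11.58, came close to the highest of them. Hspa5 fell to 65.0% of control (52.4 to 80.8, -0.62 with SE 0.15, adjusted p = 0.0104 in limma) and to 62.1% of chow (50.0 to 77.1, -0.69, adjusted p = 0.00118 in limma). The call against control was lost without AIN-93 purified replicate 1 (-0.54, adjusted p = 0.0523 in limma), and the call against chow held with any array left out. From low to high, the diet means ran from diet restriction (11.38) through high-fat, atherogenic, high-fructose, AIN-93 purified, Western, lab chow and EFA-deficient to low n-3 (12.21). Only the lowest step, 0.52 between diet restriction and high-fat, exceeded the larger SD of its 2 diets. The other 7 steps were at most 0.10 and their arrays overlapped.

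Hsp90b1 encodes GRP94, the Hsp90 chaperone of the ER, and it was not called under diet restriction. Its log2 intensity was 12.17, 12.57 and 12.78 in restricted mice, against 12.73, 13.55 and 12.66 on chow and 12.79, 11.82 and 12.53 on control. The control mice themselves spanned more than all the diet means, with replicate 2 the lowest. Diet restriction gave 109% of control (77.1 to 155, adjusted p = 0.804 in limma) and 72.2% of chow (50.9 to 102, adjusted p = 0.136 in limma). Hsp90b1 was 151% of control on lab chow (107 to 215, adjusted p = 0.130), 152% on the EFA-deficient diet (adjusted p = 0.126) and 143% on the low n-3 diet (adjusted p = 0.202), none of them called by limma. Over the 9 diets together its variation did not pass limma's moderated F test (adjusted p = 0.0815).

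Creld2, an ER protein that XBP1 and ATF6 are known to raise and that acts with disulfide isomerases, had the largest fall of the 9 genes. Restricted mice had log2 intensities of 8.11, 8.71 and 8.08, against 10.20, 11.38 and 9.12 on lab chow and 10.51, 9.76 and 9.90 on control. The restricted values lay below all others, but the chow mice spread more than any other group (SD 1.13). Creld2 fell to 29.6% of control (15.5 to 56.3, -1.76 with SE 0.45, adjusted p = 0.0143 in limma) and to 26.2% of chow (13.8 to 49.9, -1.93, adjusted p = 0.00189 in limma). The call against control was lost without AIN-93 purified replicate 1 (-1.53, adjusted p = 0.0646 in limma). At the other end of the order, the low n-3 mice had 10.92, 11.26 and 10.05, which overlapped control (161% of control, 84.6 to 307, adjusted p = 0.376 in limma). The diet means spanned 2.45, or 5.45-fold, and of the steps between neighbours only that from diet restriction (8.30) to Western exceeded the larger SD.

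Sdf2l1 forms a complex with ERdj proteins that helps BiP to bind its clients. Its restricted mice had log2 intensities of 5.26, 8.31 and 7.96, against 8.39, 9.52 and 8.12 on chow and 8.72, 7.69 and 8.57 on control. Only replicate 1 of the restricted mice was below the detection level, and the restricted mice overlapped both references. The fall to 35.3% of chow was called (16.6 to 75.2, -1.50 with SE 0.52, adjusted p = 0.0291 in limma), whereas 45.0% of control was not (21.2 to 95.8, adjusted p = 0.183 in limma). The call was lost without diet restriction replicate 1 (-0.54, adjusted p = 0.280 in limma) and without lab chow replicate 2 (-1.08, adjusted p = 0.160 in limma), and also when arrays were weighted by their quality (-0.88, adjusted p = 0.0775 in limma). Without diet restriction replicate 2, a call against control appeared (-1.72, adjusted p = 0.0454 in limma). The 3 low n-3 mice, at 8.89, 9.39 and 9.03, lay above the control mice, but the difference did not pass the test (171% of control, 80.4 to 364, adjusted p = 0.401 in limma).

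Dnajb9 encodes ERdj4, a J-domain protein that IRE1 and XBP1 signalling is known to raise, and it varied between diets in another order. Its log2 intensity was 11.89, 11.56 and 11.54 on the EFA-deficient diet and 11.13, 11.89 and 11.50 on the high-fructose diet, against 10.47, 11.36 and 11.01 on control. The EFA-deficient mice lay above the control mice without overlap, and neither difference was called: 164% of control on the EFA-deficient diet (114 to 236, adjusted p = 0.0810 in limma) and 147% on the high-fructose diet (102 to 212, adjusted p = 0.183 in limma). Without AIN-93 purified replicate 2 the EFA-deficient difference was called (0.92, adjusted p = 0.0447 in limma). Restricted mice, at 10.65, 10.99 and 10.70, overlapped lab chow (10.34, 10.46 and 11.06) and control. Over all diets Dnajb9 varied beyond the spread between mice (adjusted p = 0.00576 for limma's moderated F), from 10.62 on the atherogenic diet to 11.66 on the EFA-deficient diet, although no neighbours in that order were more than 1 SD apart.

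Pdia4 (ERp72) and Pdia6 (P5) encode disulfide isomerases, which form and rearrange disulfide bonds of client proteins. Pdia4 had log2 intensities of 9.22, 10.64 and 10.36 in restricted mice, against 10.27, 11.03 and 10.31 on chow and 10.29, 10.03 and 10.36 on control. Pdia6 had 8.85, 10.66 and 10.37 in restricted mice, against 10.36, 10.78 and 10.16 on chow and 10.53, 10.36 and 10.68 on control. In both genes replicate 1 of the restricted mice was the lowest of the 27 arrays, and the other 2 restricted mice lay among the rest. Neither gene was called: Pdia4 was 89.9% of control (63.5 to 127) and 72.6% of chow (51.3 to 103), and Pdia6 was 67.7% of control (43.0 to 107) and 72.0% of chow (45.7 to 113). Without diet restriction replicate 2, both were called against chow (Pdia4 -0.75, adjusted p = 0.0196, and Pdia6 -0.82, adjusted p = 0.0492, in limma). On the low n-3 diet Pdia4 had 10.48, 10.56 and 10.66, all above the control mice, at 126% of control (89.2 to 179, adjusted p = 0.434 in limma). Neither isomerase passed the F test over the 9 diets (adjusted p = 0.202 for Pdia4 and 0.447 for Pdia6 in limma).

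Xbp1 encodes the transcription factor that IRE1 switches on by splicing, and the array signal does not separate the spliced form. Its log2 intensity was 9.53, 10.09 and 9.56 in restricted mice, against 10.09, 9.98 and 10.40 on chow and 10.30, 10.40 and 10.44 on control. Restricted mice lay below the control mice, and replicate 2 overlapped chow. Xbp1 fell to 63.6% of control (50.7 to 79.8, -0.65 with SE 0.16, adjusted p = 0.0101 in limma) and to 74.2% of chow (59.1 to 93.2, -0.43, adjusted p = 0.0370 in limma). The call against control held with any array left out (highest adjusted p = 0.0490 in limma). The call against chow was lost without diet restriction replicate 1 (-0.33, adjusted p = 0.157), diet restriction replicate 3 (-0.35, adjusted p = 0.141), lab chow replicate 1 (-0.46, adjusted p = 0.0552) or lab chow replicate 3 (-0.31, adjusted p = 0.183), all in limma. At the top of the order, the low n-3 mice had 10.52, 10.48 and 10.81, above the control mice by 0.22, which was not called (117% of control, 93.1 to 147, adjusted p = 0.423 in limma). The EFA-deficient mice, at 9.87, 9.98 and 10.28, lay below the control mice without overlap. That difference was not called either (79.2% of control, 63.1 to 99.4, adjusted p = 0.198 in limma).

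**Figure D2:**
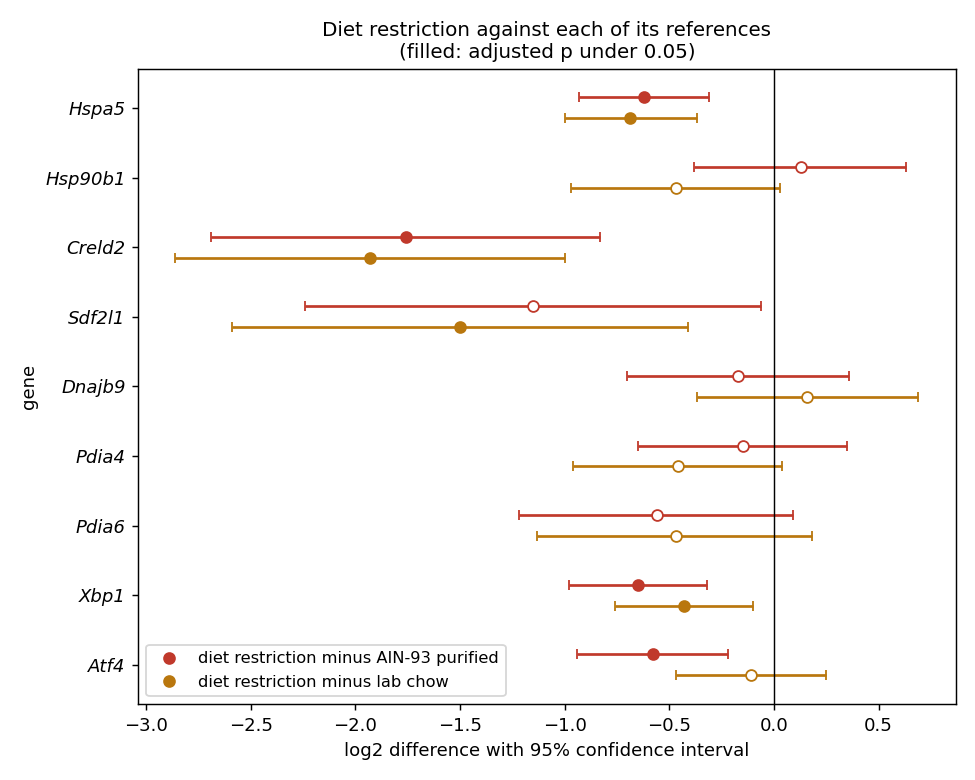
Log2 difference (horizontal axis) of the 9 genes tested (vertical axis), diet restriction minus AIN-93 purified in red and diet restriction minus lab chow in ochre, with 95% confidence intervals from limma and filled points for adjusted p under 0.05. Creld2 lies farthest from 0 in both comparisons, at -1.76 and -1.93, and Atf4 is below control (-0.58) but close to chow (-0.11).

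Atf4 encodes the factor that PERK signalling favours at the level of translation, and it changed on more diets than any other of the 9 genes. Its log2 intensity was 9.13, 8.67 and 8.93 on the high-fat diet, 9.13, 8.86 and 9.07 on the atherogenic diet and 9.36, 9.00 and 8.74 on the Western diet, against 9.67, 9.61 and 10.04 on control. All 9 arrays of these fat-rich diets lay below all 3 control arrays. Atf4 fell to 55.0% of control on the high-fat diet (adjusted p = 0.00223), to 59.2% on the atherogenic diet (adjusted p = 0.00667) and to 59.8% on the Western diet (adjusted p = 0.00763), all in limma. These comparisons share the control mice, and without AIN-93 purified replicate 3 the atherogenic call (-0.62, adjusted p = 0.0505) and the Western call (-0.61, adjusted p = 0.0556) were lost in limma. In each of these comparisons Atf4 was the only one of the 9 genes called, where 3.33% of all genes fell on the high-fat diet, 5.88% on the atherogenic diet and 4.48% on the Western diet.

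Control probes and cell markers also differed on these diets. The 3′ minus 5′ value of actin, a sign of RNA quality, was 2.52, 2.80 and 2.72 on the high-fat diet, 3.04, 3.61 and 3.21 on the atherogenic diet and 3.09, 2.81 and 2.72 on the Western diet, against 3.44, 3.60 and 3.08 on control. For GAPDH it was 0.78, 0.94 and 0.84 on the high-fat diet, 1.10, 1.53 and 1.14 on the atherogenic diet and 0.98, 0.82 and 0.82 on the Western diet, against 1.38, 1.30 and 1.04 on control. The high-fat arrays lay below the control arrays on both measures, the Western arrays on GAPDH alone, and the atherogenic arrays overlapped control on both. Kupffer cell and macrophage markers (9 of 11 above the detection level on the atherogenic, high-fat and control diets and 7 on the Western diet, with Marco and Cd68 below it on each) summed to linear intensities of 11002 to 19205 on the atherogenic diet, 4179 to 7839 on the high-fat diet and 2200.4 to 3431 on the Western diet, against 4512 to 5777 on control. Over the 9 kept genes of this list the median difference was 1.14 on the atherogenic diet, where all genes had 0.03. It was 0.01 on the high-fat diet and -0.87 on the Western diet, where all genes had -0.02 and -0.03. C1qb, Cd5l, Clec4f and Lyz2 were called higher on the atherogenic diet. The share of all genes called higher on that diet was not taken, so these names are a description. None of the 9 was called on the high-fat or Western diet, where 3.33% and 4.48% of all genes fell. The part of these control values and markers in the Atf4 result was not tested.

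Under diet restriction Atf4 was 9.47, 9.10 and 9.01, against 9.42, 9.04 and 9.46 on lab chow and 9.67, 9.61 and 10.04 on control. Restricted and chow mice both lay below the control mice and overlapped each other. Atf4 was 66.9% of control under diet restriction (52.2 to 85.9, -0.58, adjusted p = 0.0366 in limma) and 92.7% of chow (72.2 to 119, adjusted p = 0.658 in limma). On lab chow it was 72.3% of control (56.3 to 92.7), which did not pass the test (adjusted p = 0.0937 in limma). The restricted call was lost without AIN-93 purified replicate 1 (-0.63, adjusted p = 0.0533), AIN-93 purified replicate 3 (-0.45, adjusted p = 0.175), diet restriction replicate 2 (-0.53, adjusted p = 0.0965) or diet restriction replicate 3 (-0.49, adjusted p = 0.128), all in limma. The highest mean was on the EFA-deficient diet (10.04), with arrays at 9.90, 10.28 and 9.96 that overlapped control (121% of control, adjusted p = 0.367 in limma).

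Ddit3 encodes CHOP, the factor tied to prolonged ER stress, and it stayed at the edge of detection on every diet. Neither of its 2 probe sets was kept, so it was left out of the main test. With no filter on dim probe sets it was called in none of the 10 comparisons (largest difference 0.30 on the Western diet against control, adjusted p = 0.426 in limma) and did not pass the F test over the 9 diets (adjusted p = 0.246 in limma). The brighter one had diet means between 5.57 on lab chow and 6.37 on the atherogenic diet, and 26 of 27 arrays lay below the detection level. The exception was atherogenic replicate 3, at 6.74, beside 6.36 and 6.01 in the other 2 atherogenic mice. Restricted mice had 6.24, 5.46 and 5.77, against 5.71, 5.57 and 5.43 on chow and 6.10, 6.12 and 6.00 on control. The chow arrays lay below the control arrays without overlap (means 5.57 and 6.07), which was not tested in this probe set alone. All of these arrays were below the detection level, so they give neither a measured difference nor a bound on it.

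**Figure D3:**
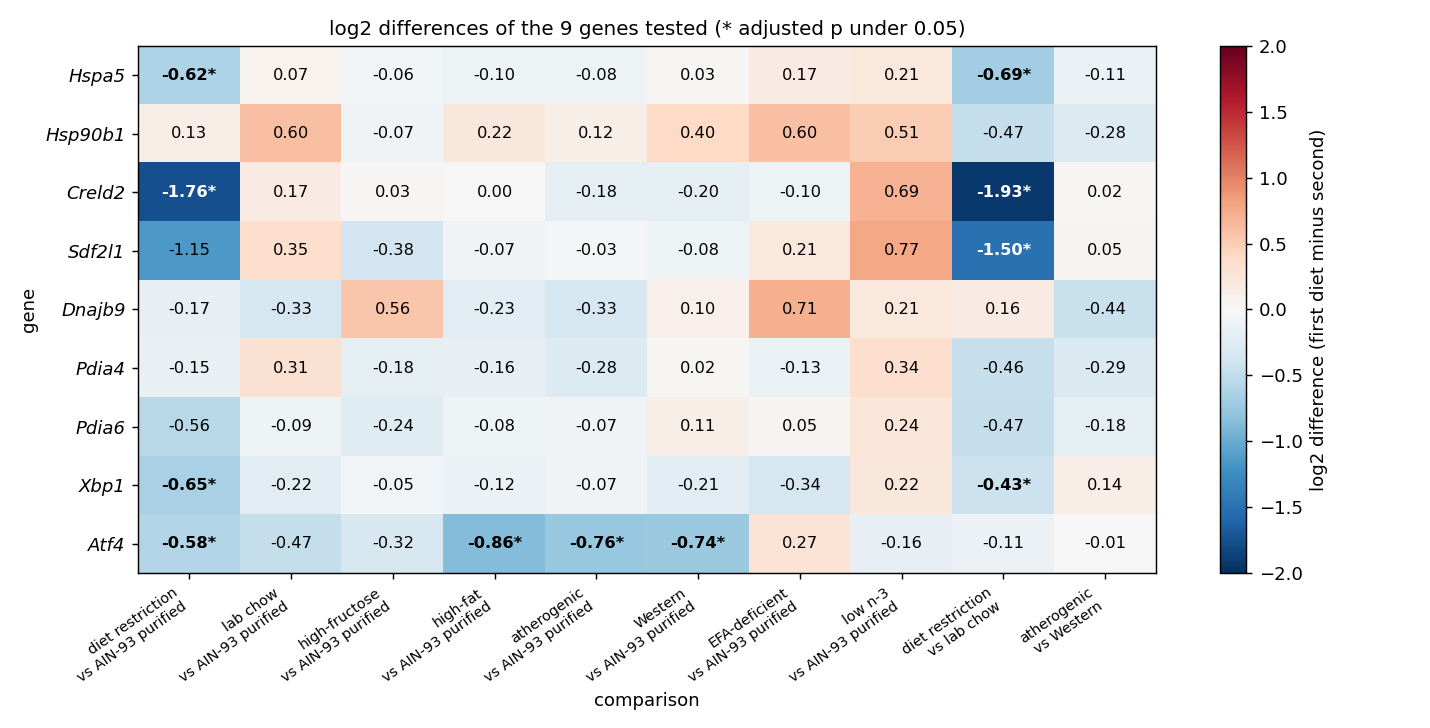
Log2 difference (colour and printed value) of the 9 genes tested (rows) in 10 comparisons (columns, the first-named diet minus the second), with an asterisk where limma's adjusted p was under 0.05. Calls stand in the diet restriction columns and, for Atf4, in the high-fat, atherogenic and Western columns.

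On the other diets few or none of the 9 genes changed. On lab chow none was called, against 4.21% of all genes, and at an unadjusted limma p under 0.05 Hsp90b1 was higher and Atf4 lower. On the high-fructose diet none was called, against 3.91% of all genes, and Dnajb9 was higher at the unadjusted level. The EFA-deficient diet gave none, against 5.51% of all genes, and at the unadjusted level Hsp90b1 and Dnajb9 were higher and Xbp1 lower. The low n-3 diet gave none, against 1.07% of all genes, and Hsp90b1 was higher at the unadjusted level. On that diet 6 of the 9 genes tested (Hspa5, Pdia4, Pdia6, Sdf2l1, Creld2 and Xbp1) had their highest mean, and the median difference was 0.24, where all genes had -0.03. The share of all genes at the unadjusted level was not taken, so genes named at that level are a description. The atherogenic against the Western diet gave none, also at the unadjusted level, where 17.8% of all genes were called. Over the 9 diets together 5 of the 9 genes passed the moderated F test (Atf4, Hspa5, Xbp1, Dnajb9 and Creld2), where 71.6% of all genes did.

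Probe sets of 1 gene did not always move alike. The Hspa5 probe sets 1427464_s_at (-0.93, adjusted p = 0.00715) and 1416064_a_at (-0.72, adjusted p = 0.0254) fell under diet restriction against control, while the dim 1447824_x_at gave -0.21 (adjusted p = 0.460 in limma), so that the gene's mean difference is smaller than that of its bright probe sets. For Xbp1, 3 of 4 probe sets fell (between -0.57 and -0.90) and the dim 1420012_at did not (-0.28, adjusted p = 0.306). That probe set was the only one of Xbp1 to fall on the high-fat diet (-0.52, adjusted p = 0.0411). Both Atf4 probe sets fell on the high-fat diet, 1438992_x_at by 0.99 and 1448135_at by 0.73, but under diet restriction only 1438992_x_at did (-0.90, adjusted p = 0.00199), and 1448135_at gave -0.26 (adjusted p = 0.486). The Hsp90b1 probe sets differed in sign under diet restriction, with -0.21 and 0.46, neither called by limma. In this array's naming the suffix x_at marks probes that can match other transcripts as well.

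**Figure D4:**
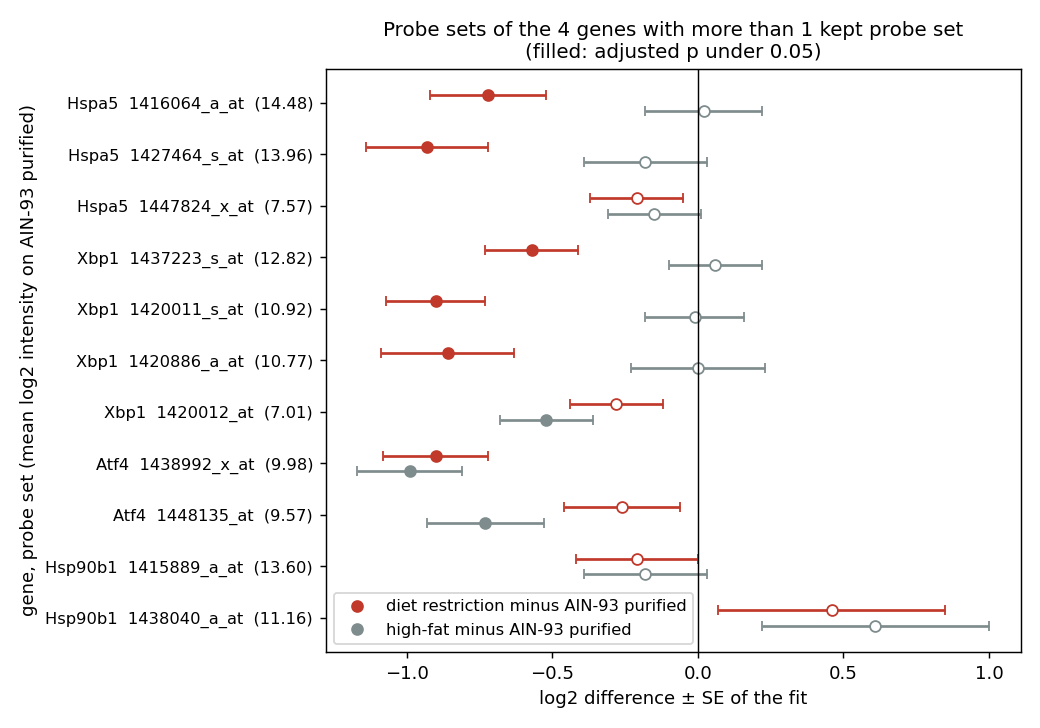
Log2 difference with its SE from limma (horizontal axis) for each kept probe set of Hspa5, Xbp1, Atf4 and Hsp90b1 (vertical axis, with its mean log2 intensity on the control diet), diet restriction in red and high-fat in grey, each minus AIN-93 purified, with filled points for adjusted p under 0.05. The dimmest probe sets of Hspa5 and Xbp1, at 7.57 and 7.01, show the smallest restricted differences of their genes.

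Replicate 1 of the restricted mice stood apart from the other 2. It lay over 1 log2 unit below both other restricted mice in 73 of 6478 genes (1.13%), against 5 and 6 genes for replicates 2 and 3. Among them were 3 of the 9 genes tested here (Pdia4, Pdia6 and Sdf2l1) and 4 of 19 further ER chaperones (Hyou1, Calr, Manf and Fkbp11), but 1 of 20 genes of ER-associated degradation and translocation (Sec61b), 0 of 8 sensors and regulators and 1 of 15 ATF4 and CHOP targets (Atf5). It was the lowest of the 27 arrays in 837 genes (12.9%), the most of any array. The 3′ minus 5′ control values of this array were 3.14 for actin and 1.10 for GAPDH, within the ranges of the 27 arrays (2.52 to 3.61 and 0.75 to 1.67). Without it, Hspa5 (-0.53, adjusted p = 0.0490), Creld2 (-1.66, adjusted p = 0.0443), Xbp1 (-0.55, adjusted p = 0.0482) and Atf4 (-0.72, adjusted p = 0.0171) were still called against control in limma. Against chow without it, Hspa5 (-0.59, adjusted p = 0.00946) and Creld2 (-1.84, adjusted p = 0.00919) were still called, and 2 of 9 genes remained in place of 4.

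Marker levels of other liver cells are given beside these falls. The stellate cell markers (2 of 5 above the detection level under restriction, 3 on chow and 4 on control) summed to linear intensities of 666 to 1054 in restricted mice, 984 to 1253 on chow and 1525 to 1748 on control. The Kupffer cell and macrophage markers (7 of 11 above it under restriction, 7 on chow and 9 on control) summed to 1831 to 5247, against 2628 to 3322 on chow and 4512 to 5777 on control. Against control 1 of 9 kept Kupffer genes (Clec4f, a defining marker) and 1 of 4 kept stellate genes (the collagen gene Col3a1) fell, where 16.0% of all genes fell. The median difference was -0.95 over the kept Kupffer genes and -1.05 over the kept stellate genes, where all genes had -0.03. Clec4f was also called lower on lab chow than on control. Against chow none of the 9 Kupffer genes fell and Col3a1 did, where 17.6% of all genes fell. The medians against chow were -0.30 for Kupffer and -0.60 for stellate genes, where all genes had 0.01. That Col3a1 call was lost without diet restriction replicate 1 (-1.06, adjusted p = 0.0658 in limma). Sinusoidal endothelial markers (4 of 6, 3 of 6 and 5 of 6 above it) summed to between 1279.6 and 2004 under restriction, 1348 and 1639 on chow and 1730.3 and 2434 on control. The median over their kept genes was -0.31 against control and 0.23 against chow. B and plasma cell markers, from cells rich in ER, were below the detection level for 8 of 8 genes in restricted and chow mice, with sums of 58.6 to 66.5 and 69.6 to 71.7, and for 7 of 8 in control mice, with 69.6 to 404. Hepatocyte markers summed to 353817 to 392550.4 under restriction, 342130.4 to 356588 on chow and 348116 to 348654 on control. Of these 8 genes, 1 rose against control (Tat), where 13.5% of all genes rose. Against chow 2 rose (Asgr1 and Tat), where 19.2% of all genes rose. The hepatocyte median was 0.05 against control and 0.08 against chow. The part of cell composition in the falls of the ER genes was not tested.

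The other ER folding genes were covered by a list of 19 chaperones and cofactors, all of them kept. Under diet restriction 2 fell against control and 4 against chow, 1 rose against chow, and the median difference was -0.13 in both comparisons. Of all genes tested, 16.0% fell and 13.5% rose against control, and 17.6% fell and 19.2% rose against chow. Manf, a secreted ER protein that stress is known to raise, had log2 intensities of 10.11, 11.81 and 11.14 in restricted mice, against 12.19, 12.78 and 11.90 on chow and 12.62, 12.34 and 12.43 on control. The restricted mice lay below both references, at 36.7% of control (-1.45, adjusted p = 0.00424) and 41.4% of chow (-1.27, adjusted p = 0.00301) in limma. Hyou1 (GRP170), which exchanges the nucleotide of BiP, had 5.57, 7.28 and 6.88, against 7.68, 8.61 and 7.32 on chow and 7.67, 6.91 and 7.00 on control, and fell to 40.8% of chow (adjusted p = 0.00310 in limma). Without the low replicate 1, Manf remained called against control (-0.99, adjusted p = 0.0270), as against chow (-0.82, adjusted p = 0.0290), and Hyou1 against chow (-0.79, adjusted p = 0.0279). Dnajb11 (ERdj3), a partner of BiP, fell to 60.7% of control (-0.72, adjusted p = 0.0299 in limma) and 57.7% of chow (-0.79, adjusted p = 0.00480 in limma). Its call against control was lost without diet restriction replicate 1 (-0.42, adjusted p = 0.163), AIN-93 purified replicate 1 (-0.61, adjusted p = 0.113) or AIN-93 purified replicate 3 (-0.73, adjusted p = 0.0722). Against chow Dnajc10 rose, a call not seen in its brightest probe set (0.19, adjusted p = 0.289 in limma), and Hspa13 fell, a call lost without diet restriction replicate 1 or lab chow replicate 2 or 3 (adjusted p up to 0.151). Against control, Fkbp2 fell on the high-fat (-0.37, adjusted p = 0.0283) and EFA-deficient (-0.35, adjusted p = 0.0411) diets in limma. Hspa13 rose on the EFA-deficient diet (0.78, adjusted p = 0.0394 in limma). On the atherogenic diet Ero1b (0.83, adjusted p = 0.0279) and Txndc5 (0.59, adjusted p = 0.0357) rose in limma. Each of these calls was lost without some single arrays. Dnajc10 was higher on the atherogenic than on the Western diet (0.55, adjusted p = 0.00218 in limma).

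Genes of ER-associated degradation and translocation, which pull misfolded proteins out of the ER or bring new chains in, had calls in both directions, as all genes did. Of 20 kept genes of this list, 3 rose (Herpud1, Srp72 and Selenos) and 3 fell (Derl2, Syvn1 and Sec62) against control, and 1 rose (Herpud1) and 3 fell (Syvn1, Sec62 and Vcp) against chow, beside the same shares of all genes (16.0% lower and 13.5% higher against control, 17.6% lower and 19.2% higher against chow). The Sec62 call against control (-0.43 in its mean of probe sets) was not seen in its brightest probe set (0.04, adjusted p = 0.901 in limma), and against chow the brightest probe sets of Sec62 (-0.16, adjusted p = 0.436) and Vcp (-0.14, adjusted p = 0.470) were not called either. Herpud1, a stress-induced part of the degradation complex, had log2 intensities of 11.68, 11.47 and 11.50 in restricted mice, against 9.86, 10.47 and 9.57 on chow and 9.99, 10.51 and 10.07 on control. It rose to 257% of control (1.36, adjusted p = 0.00120 in limma) and to 299.8% of chow (1.58, adjusted p = 5.15e-05 in limma), opposite in sign to Hspa5. Derl2, a channel component, was 9.04, 9.67 and 9.35, against 9.80, 9.66 and 9.67 on chow and 10.27, 9.98 and 10.29 on control, and fell to 56.4% of control (adjusted p = 6.18e-04 in limma). It was also called lower on lab chow (72.2% of control, adjusted p = 0.0434 in limma), a call lost without each of 11 single arrays. Srp72 was called higher than control under restriction (0.77), on lab chow (0.50) and on the Western (0.59), EFA-deficient (0.50) and low n-3 (0.75) diets. Its control arrays were at 9.77, 9.24 and 9.80. Without AIN-93 purified replicate 2 the lab chow, Western and EFA-deficient calls of Srp72 were lost. Its low n-3 call held with any array left out. That call was lost with p adjusted within the diet (adjusted p = 0.178) or with the 2 diets fitted alone (adjusted p = 0.504), both in limma. Syvn1 (HRD1), the ubiquitin ligase of the complex, was 7.72, 8.04 and 7.66, against 8.52, 9.01 and 8.47 on chow and 8.78, 8.42 and 8.71 on control. It fell to 55.1% of chow (-0.86, adjusted p = 0.00588) and 56.3% of control (-0.83, adjusted p = 0.0248) in limma. The calls of Vcp against chow (adjusted p = 0.0946 without diet restriction replicate 1) and of Selenos against control (up to 0.0951 without AIN-93 purified or diet restriction replicate 2 or 3) also depended on single arrays. The control call of Syvn1 was lost without AIN-93 purified replicate 1 (adjusted p = 0.0813) or 3 (0.0810), or diet restriction replicate 1 (0.0649) or 3 (0.0796). On the atherogenic diet Ssr4 fell (-0.62, adjusted p = 0.00950 in limma). That call was lost without AIN-93 purified replicate 1 or atherogenic replicate 2 (adjusted p up to 0.0580).

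Of the sensors and their regulators, 8 of 12 genes on the array were kept. Ern1, the gene of IRE1, had log2 intensities of 9.12, 9.24 and 9.39 in restricted mice, against 10.12, 9.70 and 10.34 on chow and 10.40, 10.07 and 10.07 on control. The restricted mice lay below both references, and Ern1 fell to 52.5% of control (-0.93, adjusted p = 0.00387) and 57.5% of chow (-0.80, adjusted p = 0.00322) in limma, calls that held with any array left out. It was the only gene of the 8 called under diet restriction, where 16.0% of all genes fell against control and 17.6% against chow. None of the 8 rose, where 13.5% of all genes rose against control and 19.2% against chow. On the high-fat diet, where Atf4 fell, Ern1 (63.2% of control, adjusted p = 0.0374) and the PERK gene Eif2ak3 (62.1%, adjusted p = 0.0381) fell and Creb3l3, a liver factor of the ATF6 kind, rose (146%, adjusted p = 0.0291), in limma. On the EFA-deficient diet Eif2ak3 rose to 161% of control (adjusted p = 0.0375 in limma). Of all genes, 3.33% fell on the high-fat diet and 5.51% were called in either direction on the EFA-deficient diet. The high-fat and EFA-deficient calls of these sensor genes depended on single arrays. On the high-fat diet Ern1 was lost without AIN-93 purified replicate 1, 2 or 3, high-fat replicate 2 or 3 or low n-3 replicate 3 (adjusted p up to 0.137), Eif2ak3 without AIN-93 purified replicate 2 or 3 or high-fat replicate 1 or 2 (up to 0.185), and Creb3l3 without AIN-93 purified replicate 1 or 3 or high-fat replicate 1 or 2 (up to 0.126). On the EFA-deficient diet Eif2ak3 was lost without AIN-93 purified replicate 1 or 2 or EFA-deficient replicate 1 or 3 (up to 0.134). Mbtps2 was called higher on the atherogenic than on the Western diet (0.60, adjusted p = 0.0447 in limma), a call lost without each of 12 single arrays.

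Of 25 genes known as targets of ATF4 or CHOP, 15 were kept, and under diet restriction 5 rose (Ddit4, Vldlr, Trib3, Cebpb and Cth) and 2 fell (Gadd45a and Atf5) against control, while Atf4 itself fell. Against chow 5 rose (Ddit4, Vldlr, Trib3, Cebpb and Cebpg) and 2 fell (Aars and Atf5, whose call was lost without diet restriction replicate 1 or lab chow replicate 2, with adjusted p up to 0.207). Of all genes, 13.5% rose and 16.0% fell against control, and 19.2% rose and 17.6% fell against chow. Vldlr and Trib3 had means above the detection level only under diet restriction (8.24 and 7.51). On the other diets their means were at most 5.85 and 6.30. They were kept through the group where they were high, so the filter itself favoured their place among the genes that rose. Ddit4, an inhibitor of mTORC1 signalling that glucocorticoids are also known to raise, had log2 intensities of 11.63, 10.43 and 10.52 in restricted mice, against 5.54, 6.98 and 6.15 on chow and 5.83, 6.18 and 7.07 on control. The difference was 4.50 against control (adjusted p = 5.64e-05 in limma) and 4.64 against chow (adjusted p = 7.89e-06 in limma). Since 2 of 3 arrays of each reference, and both reference means (6.36 on control and 6.22 on chow), lay below the detection level, the size of these differences is uncertain. Trib3, a pseudokinase that CHOP is known to raise, was 6.82, 7.80 and 7.90 in restricted mice, against 5.87, 6.36 and 5.93 on chow and 5.95, 5.31 and 4.76 on control, all below the detection level in both references. Measured against that level it was at least 1.82-fold higher (adjusted p = 2.09e-04 against control in limma), and Vldlr, the receptor for very low density lipoprotein, was at least 3.02-fold higher (adjusted p = 2.03e-05 against control). The adjusted p given with these lower limits belongs to the difference limma fitted. Gadd45a, a growth arrest gene, was below the detection level in all 3 restricted mice and at least 1.07-fold lower (adjusted p = 0.00623 against control). Its control arrays were at 6.43, 7.24 and 6.57, and only replicate 2 exceeded the detection level, so this limit rests on 1 array. Cth, an enzyme of cysteine synthesis, was also higher on lab chow at 209.6% of control (adjusted p = 0.00662 in limma). On the Western diet Asns, asparagine synthetase, was called lower (adjusted p = 0.0370), but all arrays of both diets were below the detection level and the call was lost without Western or AIN-93 purified replicate 2 or 3 (adjusted p up to 0.135). Shmt2 rose on the high-fat diet (132% of control, adjusted p = 0.0291 in limma). Cebpg was higher on the atherogenic than on the Western diet (135%, adjusted p = 0.0216 in limma). The calls of Shmt2 and Cebpg were lost without some single arrays.

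**Figure D5:**
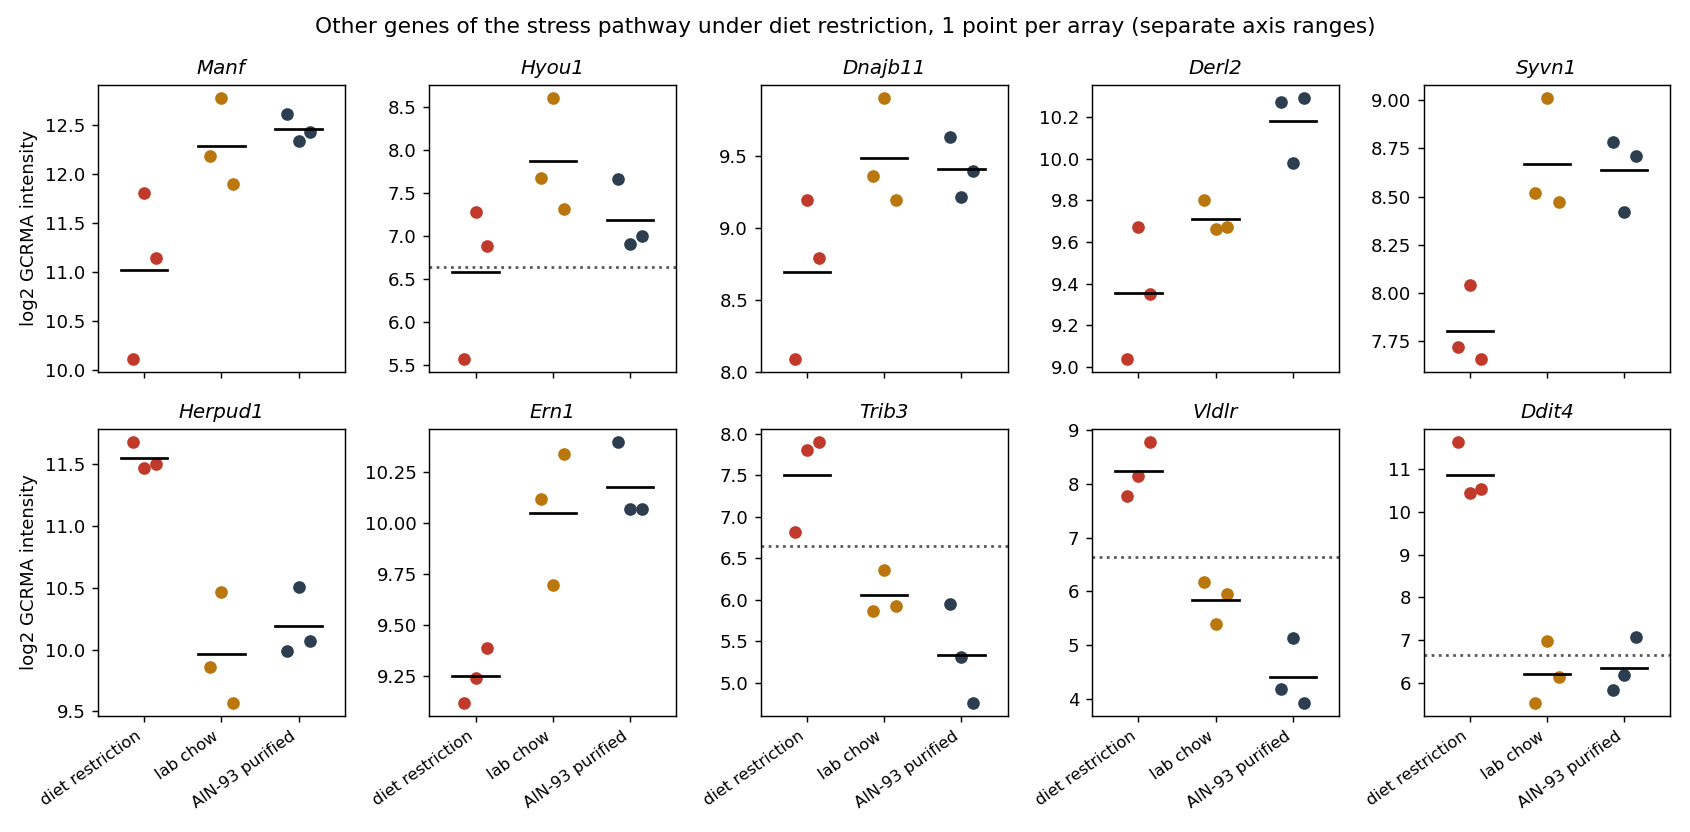
Log2 intensity (vertical axes, each with its own range) of 10 other genes of the stress pathway in restricted, lab chow and AIN-93 purified mice (horizontal axes), with a point for each array, a bar for the mean of 3 and a dotted line at the detection level of 6.64. Manf, Syvn1 and Ern1 are low and Herpud1, Trib3, Vldlr and Ddit4 high in the 3 restricted mice.

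The genes most like Hspa5 across diets were ranked by Pearson r over the 9 diet means among 4632 genes outside the 10 that passed the F test. As a description, the first 5 were Dnajb11 (r = 0.967), Adh6-ps1 (0.963), Rtp3 (0.962), Mapk1ip1l (0.960) and Mal2 (0.959). Dnajb11, a folding gene, had diet means of 8.69 under restriction, 9.78 on the low n-3 diet and 9.41 on control. For the mean of the 5 genes that passed the F test, the first were Slc16a6 (0.969), Gfpt1 (0.966), Manf (0.955), Sec23b (0.951) and Prpf6 (0.946). Gfpt1, the entry enzyme of hexosamine synthesis, had means of 7.87, 9.31 and 9.06 on the same diets, and Sec23b, a coat protein of vesicles that leave the ER, had 8.58, 9.72 and 9.47. All points share the same 27 arrays, and the restricted mean weighs heavily in each r.

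The full ER stress response element stood in the promoters of 37 genes, of which 20 were on the array and 12 were kept, 4 of them among the 10 genes followed here. Under diet restriction 4 of the 12 fell against control (Creld2, Hspa5, Syvn1 and Acacb) and none rose, with a median difference of -0.42, where all genes had -0.03. Against chow 3 fell (Creld2, Hspa5 and Syvn1) and 1 rose (Pan2), with a median of -0.39, where all genes had 0.01. Creld2 and Hspa5 in these counts are genes already described, and 16.0% of all genes fell against control and 17.6% against chow. The call of Acacb was lost without AIN-93 purified replicate 3 or diet restriction replicate 1 (adjusted p up to 0.105), and that of Pan2 without replicate 2 or 3 of either diet (up to 0.179). Carriers of the element were not uniform, since Hsp90b1, with 2 matches, gave 0.13 against control (adjusted p = 0.804), and Dnajc3, a co-chaperone of BiP, gave 0.31 (adjusted p = 0.264 in limma). No match stood in the windows of Xbp1 and Atf4, which fell against control. The set was assembled after values of some of its genes had been seen, so these counts are a description.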

How the data were processed

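Per the labels and the study's methods, liver RNA of each mouse was hybridised to 1 Affymetrix mouse genome array, and the authors corrected background and normalized with GCRMA. The deposited values are log2 intensities and were used as they are. Gene symbols came from the platform annotation: of 45101 probe sets, 34958 list 1 symbol and were used, 932 list several and 9211 none. Promoter sequences are from RefSeq (GRCm38.p6).

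Diets were compared in limma 3.58.1 (R 4.3.3) over all 27 arrays. P was adjusted over the 6478 kept genes and 8 diets together, and on its own for diet restriction against lab chow, for atherogenic against Western and for the moderated F test. The 10 genes, the pathway and marker lists and the tests were chosen with earlier results of these data known, so counts of list members are descriptions. Up to 4 called genes per pathway list and comparison are named, by size of change. Other genes behind counts of 5 or fewer, and genes holding the promoter element, were named after their values were seen. The fit was tested on simulated data. Alternatives were other filters on dim probe sets, other ways to combine them, normalizations, priors, array weights and adjustments, Dunnett's test, a replicate block, fits of 2 diets alone and each array left out in turn. The number of arrays per diet limits precision. Tables and plots used Python 3.11.15, pandas 2.3.3 and matplotlib 3.10.9.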

Additional observations from a re-analysis of the deposited data

How the results depend on the processing

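For the 11 calls of single genes in the report's set, 421 alternative values were computed, of which 399 kept direction and call, 22 kept direction without the call and 0 reversed. The number of genes called (of 9) moved as follows. With array weights, lab chow gave 1 in place of 0 (Atf4) and diet restriction against chow 3 in place of 4 (Sdf2l1 lost). Fitted with control alone, the Western diet gave 0 in place of 1, and diet restriction fitted with lab chow alone gave 2 in place of 4. With no filter on dim probe sets, diet restriction gave 2 in place of 4 against control (Creld2 and Atf4 lost) and 2 in place of 4 against chow (Xbp1 and Sdf2l1 lost). With each array left out in turn, the number was 0 to 1 on the Western diet, 0 to 1 on the atherogenic diet, 0 to 1 on the EFA-deficient diet, 1 to 4 for diet restriction against control and 2 to 6 against lab chow. Only Xbp1 remained against control without AIN-93 purified replicate 1. With a replicate block, diet restriction gave 4 against control and 4 against chow, and no count changed. The numbers share no stated source. Arrays of the same number correlated by 0.0354 on average (-0.273 to 0.413) in their deviations from diet means, against -0.0177 for arrays of other numbers. Of 27 arrays, 17 were best matched to their own number among the 3 in use, so some shared structure by number is possible. For 59 calls of pathway, element and marker genes, 2065 of 2252 alternative values kept the call, 186 lost it and 1 reversed: Sec62 against control, read from its brightest probe set alone (0.04). The causes were not tested. Signal limits Ddit3, which stayed near the detection level.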
